A study of Mus musculus with 15 samples.

Results

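Added glucose was compared with no added glucose in cells of the mouse podocyte line MPC5 that had all received a virus carrying a short hairpin RNA against Mettl3. RNA was compared over the 11591 genes, of 25012 in the deposited table, whose mean level over the 3 RNA libraries of the study was at least 1 FPKM (read fragments scaled by transcript length and library size). The mark N6-methyladenosine (m6A) was compared over the peaks of the authors' lists of antibody pull-down against input, of which 18317 pairs overlapped on the same strand by at least 1 base. The cells labelled sh_METTL3_G had the virus and then 25 µmol/L glucose for 72 hours, the cells labelled sh_METTL3 had the virus in standard medium, and control cells, labelled WT, had neither. The glucose unit is given as labelled. Since high glucose is normally given in millimolar units, the true dose is uncertain. Each condition had 5 samples, made up of 2 inputs, 2 pull-downs and 1 RNA sample of no stated kind, and all 15 samples carried the same batch label.

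MPC5 is an immortalised line, and its cells stand in for podocytes, the epithelial cells whose interlocking foot processes form the filter of the kidney. Mettl3 is the catalytic subunit of the complex that writes m6A on messenger RNA, a mark that reader proteins use to change the stability and translation of a transcript. Glucose that enters a cell is phosphorylated by hexokinases, and the sugar phosphates act on transcription factors of the Mondo family (ChREBP and MondoA), whose best known targets are Txnip and Arrdc4. High glucose is widely used on podocytes as a culture model of diabetic kidney disease, and the series title places METTL3 in an axis with Smad2, Smad3 and S1PR1.

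RNA was deposited for 1 library of each condition, totalling 52807701 counts with glucose, 53655982 in sh-METTL3 and 54282720 in the control. A single library per condition allows no test, so RNA differences carry no p-value, and each "higher" or "lower" refers to one library against another. The 95% exact binomial intervals given with ratios of count shares hold the counting error of reads alone and no spread between cultures. Reads copied by PCR and carrying no molecular identifier are not separate molecules, so the intervals may be too narrow even for counting error. The controls had no virus at all, and there were no cells with glucose but without the virus, so an effect of glucose in unmodified cells was not measured. Glucose and the identity of the library cannot be told apart here.

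Mettl3 itself did not separate the libraries. It stood at 2.49 FPKM with glucose, 2.42 in sh-METTL3 and 2.34 in the control, with counts of 1033, 1028 and 989. Its share of all counts with glucose was 1.02 times that in sh-METTL3 (0.936 to 1.11). Because the gene was not lower than in the control in either virus library, these libraries are named by their labels. Of the podocyte markers, Nphs1, the gene of the slit diaphragm protein nephrin, stood at 1.85, 1.37 and 3.35 FPKM in the glucose, sh-METTL3 and control libraries. The podocyte transcription factor Wt1 fell below the filter with 125, 22 and 338 counts. Both of these defining markers of a mature podocyte were thus low in all 3 libraries and highest in the control. The 14 tested podocyte markers as a list went the other way. Their median log2 ratio over the control was 1.12 for sh-METTL3 and 1.00 with glucose. Their summed level was 436, 428 and 187 FPKM in the glucose, sh-METTL3 and control libraries.

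Interferon, antigen presentation and inflammatory genes stood higher with glucose than in sh-METTL3, while 12 of 25 cholesterol genes and 11 of 29 immediate early genes were at least 2-fold lower. For glucose over control, the median log2 ratios of these lists were -0.08, -0.41, 0.14, -0.08 and 0.05 in that order. For sh-METTL3 over control they were -1.49, -1.96, -1.07, 0.98 and 0.94. These comparisons share libraries, so their medians are not independent. With glucose, 326 of the 11591 genes (2.81%) were higher and 214 (1.85%) lower by 2-fold or more, meaning a log2 ratio of 1 or beyond in either direction after 1 was added to each FPKM. Over all genes the median log2 ratio was 0.06, and the middle 50% of genes lay between -0.21 and 0.30. The genes nearest to the upper threshold, inside and outside it, both stood at 1.00, so no gap separates the counted genes from the rest. At 1.5-fold, 1053 genes were higher and 840 lower. The ratio leaned on gene length. The median log2 ratio was 0.07 in the decile of shortest genes and -0.10 in the decile of longest genes (Spearman rho -0.16 across genes, which are not independent replicates), and the part of length in any list below was not tested.

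**Figure D1:**
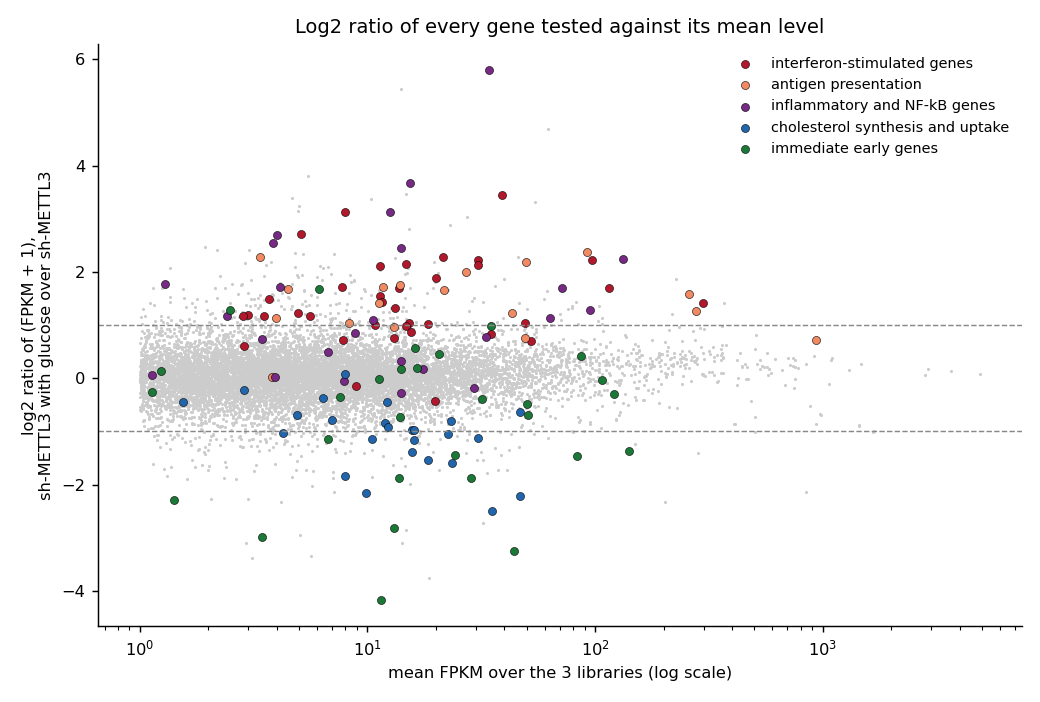
Each point is 1 of the 11591 genes, with its mean FPKM over the 3 libraries on a log axis and its log2 ratio of (FPKM + 1), sh-METTL3 with glucose over sh-METTL3. Coloured points are members of 5 gene lists and dashed lines mark a 2-fold difference. Interferon, antigen presentation and inflammatory genes lie mostly above 0, with Lcn2 the highest at 5.79, and cholesterol genes lie mostly below 0.

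Lcn2, a secreted protein that binds iron carriers and is known as a marker of kidney injury, had the highest log2 ratio of the tested genes, 5.79. The gene is ENSMUSG00000026822, at 32384633 to 32387797 on chromosome 2 of mouse build GRCm38. It reached 61.9 FPKM (13198 counts) with glucose, against 0.137 FPKM (31 counts) in the sh-METTL3 library and 40.3 FPKM (8778 counts) in the control. Its count share with glucose was 433 times that in sh-METTL3 (305 to 637). Lcn2 was thus nearly absent from 1 library and abundant in the other 2. Complement C3, the central protein of the complement cascade (chromosome 17, 57203970 to 57228136), stood at 141 FPKM with glucose, 4.47 in the sh-METTL3 library and 41.5 in the control, a ratio of 31.2 (29.8 to 32.7). Here the glucose library was also the highest of the 3. Nos2, the inducible nitric oxide synthase, stood at 13.5, 0.0349 and 2.88 FPKM in the same order of libraries. The other genes of the highest 10 at a mean FPKM of at least 5 were the chemokine Ccl7 (log2 ratio 3.66), the retinal dehydrogenase Aldh1a1 (3.47), the interferon-induced Ifi27l2a (3.45), the cornified envelope protein Sprr1b (3.36), the platelet chemokine Ppbp (3.32), the matricellular protein Ccn5 (3.23) and Trim30a (3.12), an interferon-induced ubiquitin ligase. Ccl7, Aldh1a1, Ifi27l2a and Trim30a, at 19.4, 20.9, 43.3 and 10.6 FPKM with glucose, were highest in the control, at 26.2, 22.3, 71.1 and 13.1 FPKM.

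Interferon-stimulated genes, an antiviral programme, stood higher with glucose almost throughout. Of 36 tested, 27 were at least 2-fold higher with glucose, 0 lower and 9 between, against 2.81% and 1.85% of all genes, and 34 had a log2 ratio above 0. Their median log2 ratio was 1.27. Isg15, a ubiquitin-like modifier, stood at 136 FPKM with glucose, 28.4 in the sh-METTL3 library and 127 in the control. Oas3, which makes the activator of RNase L, stood at 28.4, 5.09 and 30.7 FPKM in that order. Irf7, the transcription factor that amplifies the response, stood at 31.6, 6.45 and 54.2 FPKM. For Isg15 and Oas3 the glucose and control libraries were close, and for all 3 genes the sh-METTL3 library was the lowest. Zbp1, a sensor of foreign nucleic acid, had 1838 counts with glucose, 41 in the sh-METTL3 library and 2576 in the control (log2 ratio of FPKM 2.71, glucose over sh-METTL3). Ifit2 (-0.42) and the kinase Eif2ak2 (-0.14) were the members below 0. For the list as a whole the median log2 ratio of sh-METTL3 over control was -1.49. That comparison shares the sh-METTL3 library with the glucose comparison, so the 2 medians are not independent values.

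The interferon-inducible GTPases, which attack the membranes around intracellular pathogens, had 7 of 11 members at least 2-fold higher, 0 lower and 4 between, and the list's median log2 ratio was 1.30. Gbp3 (2.08), Gbp4 (1.93) and Gbp2 (1.81) led them. Gbp2 stood at 11.6 FPKM with glucose, 2.59 in the sh-METTL3 library and 11.1 in the control. In antigen presentation, by which peptides are displayed on MHC molecules, 14 of 18 genes were higher, 0 lower and 4 between, and all 18 lay above 0, with a median of 1.5. H2-Q6, an MHC class I gene, stood at 100.04 FPKM with glucose, 18.4 in the sh-METTL3 library and 158 in the control. H2-Q6 and H2-Q7 (2.19), Tgtp1 and Tgtp2, and Oas1a have near-identical relatives, so their reads may have been split among copies. Cd74, the invariant chain of MHC class II, stood at 5.88, 0.425 and 3.86 FPKM. Psmb8, a subunit of the immunoproteasome that cuts peptides for display, stood at 28.6, 6.37 and 46.6 FPKM. Of the ordinary proteasome subunits, 0 of 31 were at least 2-fold apart in either direction, and their median was 0.10.

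**Figure D2:**
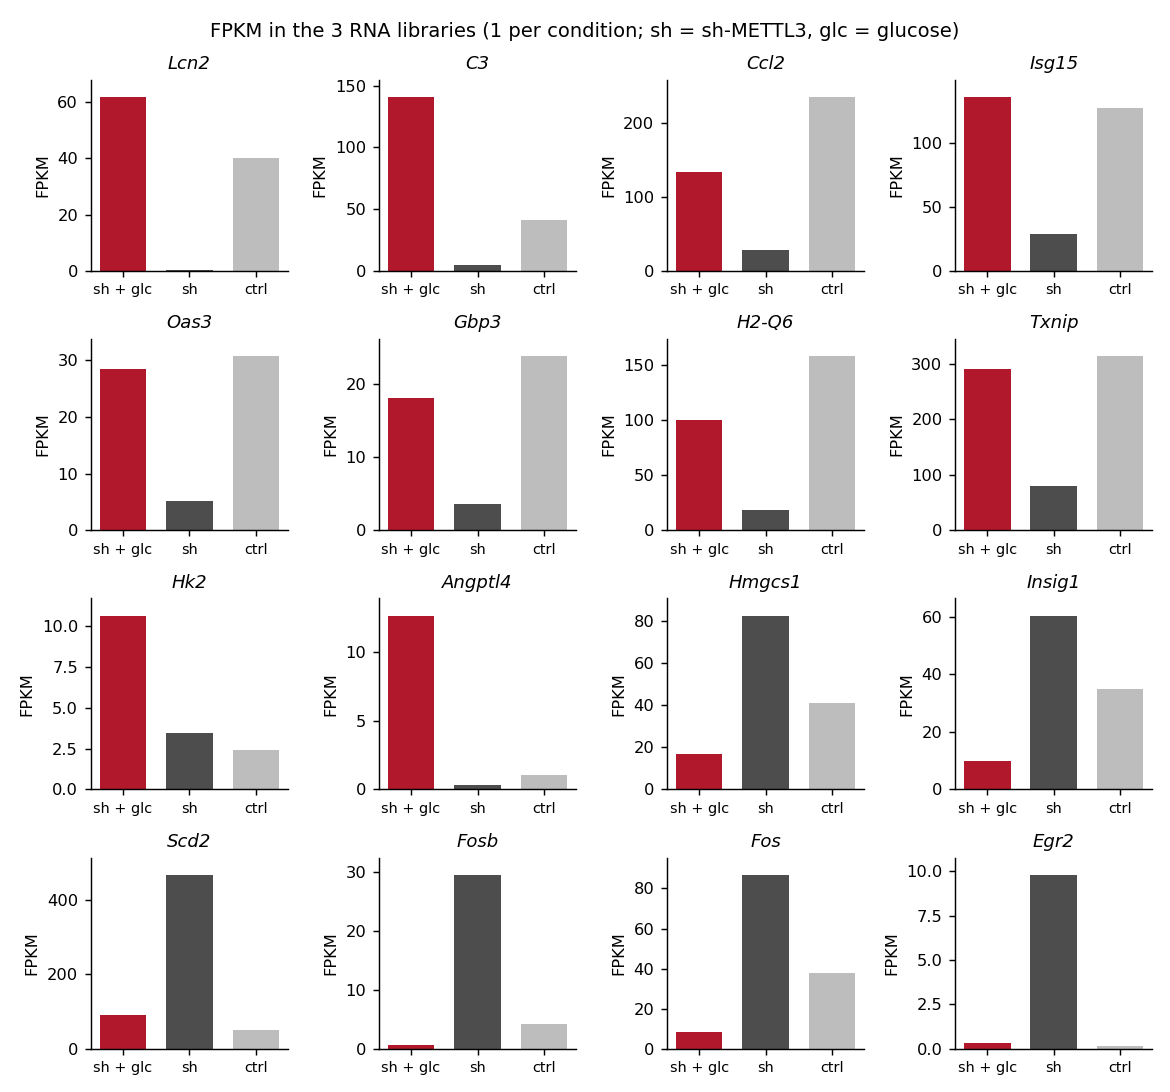
Bars give the FPKM of 16 genes in the 3 RNA libraries, 1 per condition, on a linear axis that starts at 0 in each panel, with the sh-METTL3 plus glucose library at left, sh-METTL3 in the middle and control at right. There are no error bars, since each condition had 1 library. Isg15, Oas3, Gbp3, H2-Q6 and Txnip are low in the middle bar alone, C3, Hk2 and Angptl4 are highest with glucose, and Hmgcs1, Insig1, Scd2, Fosb, Fos and Egr2 are highest in the middle bar.

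The promoters of the interferon genes are shown because most tested members of these lists stood higher together. The promoter windows come from RefSeq (build GRCm38.p6), with 250 bases before and 50 after each gene's start, and were available for 17 of the interferon-stimulated genes that were at least 2-fold higher. The motif GAAANNGAA, the core of the interferon-stimulated response element, was searched on both strands and occurs in 12 of these 17, and in all 5 of the higher GTPases with a window. It was shortened from a longer planned form after values were seen, and counts for the longer form are not given. Of all tested interferon-stimulated genes with a window, 15 of 25 held the short form. Among all tested GTPases with a window 8 of 9 held it, members between the thresholds included. In antigen presentation, 2 of 11 higher genes with a window held it. The same letters occur in 9.76% of the genes with a promoter window and in 8.29% of those tested for RNA. Overlapping matches in 1 window were counted once per gene. In the windows below, read 5′ to 3′ on the strand of the gene, capitals mark the motif, and in Gbp2 and Gbp3 they hold its reverse complement, a match on the other strand. Isg15 lies at chr4:156200872-156200900 (minus strand), Oas3 at chr5:120777710-120777738 (minus), Gbp2 at chr3:142620595-142620623 (plus), Gbp3 at chr3:142559990-142560018 (plus), Cxcl10 at chr5:92349084-92349112 (minus) and Tgtp2 at chr11:49064264-49064292 (minus).
Isg15: gtaggaaaagGAAACCGAAacagaaaata
Oas3: aggagaaaacGAAAGTGAAgggaggtgac
Gbp2: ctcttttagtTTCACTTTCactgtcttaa
Gbp3: aggacacagtTTCAGTTTCtatttcccag
Cxcl10: tcacgctttgGAAAGTGAAacttacctca
Tgtp2: tccaggaatcGAAACCGAAacctactctg
The motif began 72 bases before the start of Isg15, 69 before that of Oas3, 58 before that of Gbp2 and 213 before that of Cxcl10. A match describes these letters alone and does not show that a factor bound there.

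Inflammatory genes and targets of the transcription factor NF-kB followed the same direction. Of 25 tested, 14 were at least 2-fold higher with glucose, 0 lower and 11 between, and the list's median log2 ratio was 1.14. The chemokine Ccl2, which draws monocytes, stood at 134 FPKM with glucose, 27.6 in the sh-METTL3 library and 236 in the control. Cxcl5, a neutrophil chemokine, stood at 27.4, 2.27 and 7.89 FPKM, the highest with glucose. The growth factor Csf2 had 357 counts with glucose, 0 in the sh-METTL3 library and 435 in the control. Saa3, an acute-phase protein, had 510 counts with glucose, likewise 0 in the sh-METTL3 library and 314 in the control. Transcripts of the NF-kB subunits Rela (-0.18) and Nfkb1 (-0.05) were not among the higher ones, whereas Nfkbia, the inhibitor that NF-kB itself induces, stood at 55.0, 22.1 and 208 FPKM. The site GGGANNTTC lay in the windows of 3 of the 8 higher members that had one, Cxcl1, Csf1 and Nfkbia, and in 4.47% of all genes with a window and 4.13% of those tested. Among all 16 tested members of the inflammatory list with a window, 4 held it. Of the 11 higher antigen presentation genes with a window, 0 held this site. The windows of Cxcl1 (chr5:90891164-90891192, plus strand) and Nfkbia (chr12:55492742-55492770, minus strand) are shown because these genes are standard targets.
Cxcl1: cctgtactccGGGAATTTCcctggcccgg
Nfkbia: gctcatcgcaGGGAGTTTCtccgatgaac
Of the leukocyte markers, which could carry such genes from other cells, Cd14 stood at 4.61, 5.08 and 2.11 FPKM in the glucose, sh-METTL3 and control libraries, Csf1r at 1.01, 4.03 and 0.442, and Cd68 at 5.22, 1.88 and 2.59. Ptprc, which marks all leukocytes, had 0, 7 and 0 counts. Summed over the list, the leukocyte markers came to 11.2 FPKM with glucose, 11.1 in the sh-METTL3 library and 5.42 in the control.

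Genes that answer intracellular glucose were higher in part. Of 12 tested genes of glucose sensing and of ChREBP targets, 4 were at least 2-fold higher, 0 lower and 8 between, and the list's median log2 ratio was 0.63, which became 0.36 with a pseudocount of 5 and 0.14 with no filter on low values. Txnip, which curbs glucose uptake and binds thioredoxin (chromosome 3, 96557957 to 96561883), stood at 291 FPKM with glucose, 78.7 in the sh-METTL3 library and 313 in the control. Glucose over sh-METTL3, the count shares stood at 3.66 (3.61 to 3.72). Its close relative Arrdc4 stood at 7.60, 3.21 and 12.4 FPKM. Thus Txnip and Arrdc4 were no higher with glucose than in the control, which had standard medium. The glycogen synthase Gys1 stood at 18.0, 7.02 and 12.2 FPKM, and the secreted hormone Fgf21 at 2.48, 0.619 and 6.90. The E-box CACGTG, to which ChREBP and many other factors bind, lay in the windows of Arrdc4 and Fgf21 among these 4 genes, and in 8.09% of all genes with a window and 12.3% of those tested. Of all 12 tested genes of this list 5 held it, members between the thresholds included. In the glycolysis list described next, 0 of the 2 higher genes and 6 of all 25 tested held it. Of 25 genes of glucose entry and glycolysis, 2 were at least 2-fold higher, 0 lower and 23 between, and the median was 0.35. Hexokinase 2, Hk2, stood at 10.7 FPKM with glucose, 3.48 in the sh-METTL3 library and 2.42 in the control, highest with glucose. The glucose transporter Slc2a1 stood at 33.0, 15.97 and 24.7 FPKM and sat at the threshold (log2 ratio 1.00). The other routes of glucose, the polyol, hexosamine and pentose phosphate genes, had 0 of 16 at least 2-fold apart and a median of 0.29, with G6pdx (0.78) and the aldose reductase Akr1b3 (0.59) the highest.

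**Figure D3:**
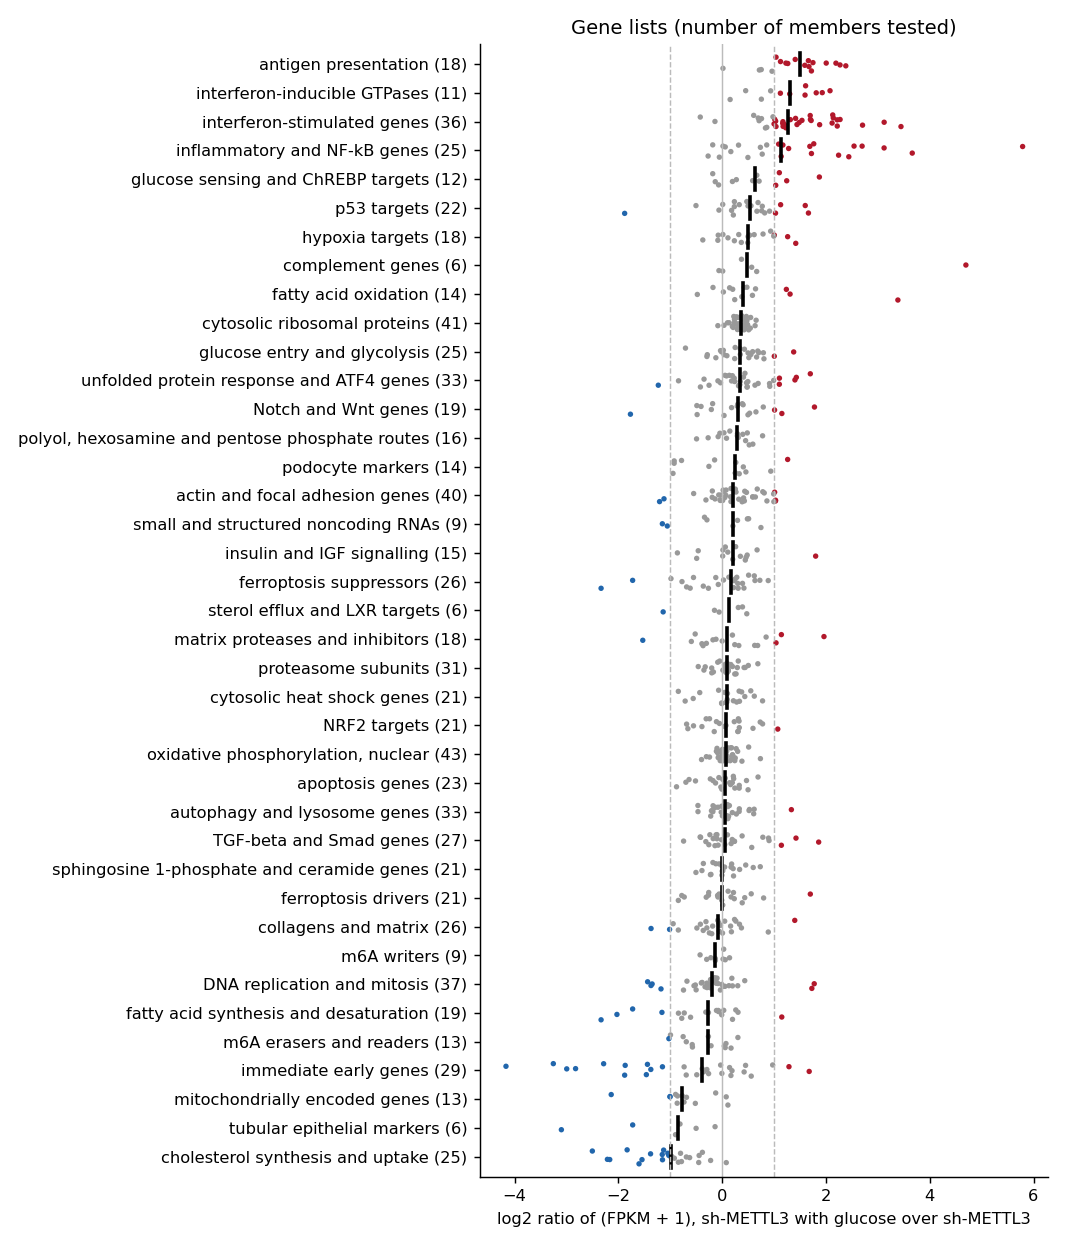
Each point is 1 tested gene of a list, placed by its log2 ratio of (FPKM + 1), sh-METTL3 with glucose over sh-METTL3, and black bars are list medians. The fixed lists with at least 6 tested members are ordered by median, without the groups assembled after values were seen, and dashed lines mark a 2-fold difference, with points beyond it in red or blue. Antigen presentation (median 1.5) is at the top and cholesterol synthesis (-0.98) at the bottom.

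Genes of cholesterol synthesis and uptake, which the transcription factor SREBP2 drives when sterols are short, were lower. Of 25 tested, 0 were higher with glucose, 12 lower by 2-fold or more and 13 between, and 24 lay below 0, with a median log2 ratio of -0.98. Insig1, which retains SREBP in the endoplasmic reticulum, stood at 9.84 FPKM with glucose, 60.4 in the sh-METTL3 library and 35.1 in the control. Glucose over sh-METTL3, the count shares stood at 0.162 (0.155 to 0.169). Hmgcs1, an early enzyme of the pathway (chromosome 13, 119690379 to 119708260), stood at 17.1, 82.6 and 41.2 FPKM, and the isomerase Idi1 at 3.66, 19.9 and 6.05. For Insig1, Hmgcs1 and Idi1 the glucose library was the lowest of the 3, but the list's median log2 ratio of glucose over control was -0.08. The median of the list for sh-METTL3 over control was 0.98, again a value that shares the sh-METTL3 library. The sterol regulatory element TCACNCCAC lay in the window of Hmgcs1, the 1 match among 6 lower members with a window, and in 1.44% of all genes with one and 1.31% of those tested. It began 137 bases before the start, at chr13:119690204-119690232 (plus strand).
Hmgcs1: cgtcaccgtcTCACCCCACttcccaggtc

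Fatty acid synthesis and desaturation showed the same direction in fewer members. Of 19 genes, 1 was higher, 4 lower by 2-fold or more and 14 between, and the list's median was -0.26. The desaturase Scd2 (chromosome 19, 44293674 to 44306864) stood at 91.9 FPKM with glucose, 467 in the sh-METTL3 library and 49.9 in the control, from 40806, 212635 and 22631 counts. Scd1 stood at 21.6, 73.8 and 17.3 FPKM, the elongase Elovl6 at 2.42, 12.9 and 1.77, and the synthase Fasn at 21.7, 49.7 and 10.7. In all 4 the glucose library lay between the other 2, nearer to the control. Dgat2, which makes triglyceride, was the 1 member at least 2-fold higher (1.15), and 5 of the 19 lay above 0. Fatty acid oxidation genes had 3 of 14 at least 2-fold higher, 0 lower and 11 between, and the list's median was 0.40. Angptl4, a lipase inhibitor that fasting induces, stood at 12.6 FPKM with glucose, 0.305 in the sh-METTL3 library and 1.05 in the control, highest with glucose. Plin2, a coat protein of lipid droplets (1.31), and Cpt1a, the gate of mitochondrial fatty acid import (1.24), were the other 2. Cpt1a stood at 21.8, 8.67 and 4.70 FPKM.

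Immediate early genes, which are transcribed within minutes of a stimulus such as serum or stress and handling, split 2 higher, 11 lower and 16 between out of 29, with the list's median at -0.38. Fosb (chromosome 7, 19302696 to 19310051) had the lowest log2 ratio of the named genes (-4.17), with 0.698 FPKM in the glucose library, 29.5 in the sh-METTL3 library and 4.29 in the control. Its count share with glucose was 0.0236 of that in sh-METTL3 (0.0212 to 0.0262). Fos, its partner in the AP-1 family, stood at 8.19, 86.7 and 37.8 FPKM. The zinc finger factor Egr2 stood at 0.353, 9.78 and 0.174 FPKM, and Arc, a synaptic gene that is also serum-induced, at 3.29, 29.4 and 6.60. Fosb and Fos were lower with glucose than in either other library, whereas Egr2 in the control was lower still. Klf4 (1.68) and Klf2 (1.29), transcription factors of epithelial and endothelial quiescence, were the 2 higher members. The AP-1 site TGANTCA lay in 0 of the 22 tested immediate early genes with a promoter window, and in 5.74% of all tested genes with one. Outside the lists, the lowest genes at a mean FPKM of at least 5 included the neurotrophic cytokine Cntf, at 2.91 FPKM with glucose, 51.9 in the sh-METTL3 library and 0.783 in the control. The sulfotransferase Sult1d1 (-3.35) and the methyltransferase Inmt (-2.85) were also among them.

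Genes of the axis named in the series title stayed within 2-fold in RNA by the log2 ratio used here. S1pr1, a receptor for sphingosine 1-phosphate, stood at 1.02 FPKM with glucose, 0.335 in the sh-METTL3 library and 1.78 in the control, from 254, 86 and 451 counts. Its ratio of count shares was 3.00 (2.34 to 3.88), glucose over sh-METTL3, but at this low level its log2 ratio with 1 added to each FPKM was 0.60, short of the threshold. Smad3, a transcription factor that TGF-beta receptors activate, stood at 19.3, 24.2 and 5.14 FPKM, and Smad2 at 4.66, 5.77 and 3.60. Of 27 TGF-beta and Smad genes, 3 were at least 2-fold higher, 0 lower and 24 between, and the list's median was 0.05. Over all genes 2.81% were higher and 1.85% lower. Id1, a target of BMP signals (1.86), and the activin subunit Inhba (1.42) were among those 3. Sphingosine and ceramide genes had 0 of 21 at least 2-fold apart in either direction and a median of 0.00, whose sign turned with the scaling (-0.02 with median-of-ratios and -0.05 with quantile normalization).

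Ferroptosis, also named in the series title, is a cell death in which iron drives the peroxidation of membrane lipids. Among 26 genes that restrain it, 0 were higher with glucose, 2 lower by 2-fold or more and 24 between, and the median was 0.17, which turned to -0.07 over genes with a mean of at least 5 FPKM. The 2 were Scd2 (-2.33) and Scd1 (-1.73), which are also in the desaturation list above. Gch1, which makes the antioxidant cofactor tetrahydrobiopterin, was the highest at 0.89. Slc7a11, the cystine transporter, stood at 2.68 FPKM with glucose, 1.97 in the sh-METTL3 library and 1.82 in the control. Among 21 genes that promote ferroptosis, 1 was higher, 0 lower and 20 between, and the list's median was -0.01. That gene was Chac1, which degrades glutathione, at 30.2, 8.60 and 7.19 FPKM. NRF2 targets, which answer oxidative stress, had 1 of 21 higher, Gsta4 (1.07), and 0 lower, with a median of 0.07. Over all genes 2.81% were higher and 1.85% lower. The higher shares of the ferroptosis drivers and of the NRF2 targets, 4.76% each, rested on 1 gene each. The antioxidant response element TGACNNNGC lay in 8 of the 16 tested NRF2 targets with a promoter window. It lay in 14.0% of all genes with a window and 16.9% of those tested.

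Of 14 podocyte markers, 1 was at least 2-fold higher, 0 lower and 13 between, against 2.81% higher and 1.85% lower over all genes. The list's median log2 ratio was 0.25, against 0.06 over all genes. It became 0.15 with quantile normalization and 0.04 with no filter on low values. The higher one was Vegfa (17.4, 6.65 and 20.5 FPKM in the glucose, sh-METTL3 and control libraries), the growth factor podocytes supply to glomerular vessels, which is also a hypoxia target. Podxl, the sialomucin of the podocyte surface, stood at 11.8, 5.70 and 5.11 FPKM. The slit diaphragm protein Kirrel (-0.95), the adaptor Cd2ap (-0.93) and the matrix receptor Dag1 (-0.92) were the lowest. Of 6 tested tubular epithelial markers, 2 were at least 2-fold lower, 0 higher, and all 6 lay below 0. Their summed level over all listed members was 122 FPKM with glucose, 245 in the sh-METTL3 library and 77.4 in the control. The water channel Aqp1 stood at 3.42, 36.9 and 2.29 FPKM and the transcription factor Pax2 at 12.2, 42.5 and 7.07. Of 3 tested mesangial and fibroblast markers 2 were higher, smooth muscle actin Acta2 (15.2, 2.94 and 15.8 FPKM) and Tagln (8.59, 3.70 and 14.0), while Pdgfrb (-0.68) was not. No endothelial marker passed the filter (0 of 10 listed), and their sum was 2.04, 0.872 and 1.21 FPKM. In bulk RNA, fewer cells of a type and less RNA per cell cannot be told apart, and the part of other cell types in these differences was not tested.

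Stress and growth genes split between the directions, and their counts stand against 2.81% higher and 1.85% lower over all genes. Of 22 p53 targets, 17 were between the thresholds and 4 at least 2-fold higher, among them the cell cycle inhibitor Cdkn1a (27.1, 8.28 and 19.5 FPKM) and Gadd45a (1.66), and 1 lower, Btg2 (-1.88). Of 33 genes of the unfolded protein response and ATF4, 5 were higher, 1 lower and 27 between, with the median at 0.35, and Trib3 (1.40) and Nupr1 (1.43) were among the higher. The chaperone Hspa5, however, stood at 186 FPKM with glucose, 119 in the sh-METTL3 library and 780 in the control. DNA replication and mitosis genes had 4 of 37 lower and 2 higher, with a median of -0.19. Mki67, the proliferation antigen, stood at 25.1, 69.5 and 21.5 FPKM, and the 2 higher were the cyclins Ccnd2 (1.77) and Ccnd1 (1.73). Matrix genes had 1 of 26 higher and 2 lower, the higher being the laminin chain Lamb3 (1.40), and fibronectin, Fn1, stood at 154, 82.5 and 87.8 FPKM. Among the remaining lists, hypoxia targets had 3 of 18 higher and 0 lower, led by the oxygen-sensing hydroxylase Egln3 (1.42). Notch and Wnt genes had 3 of 19 higher, with the receptor Notch3 at 1.78, and 1 lower, the Notch target Hes1 (2.58, 11.2 and 7.39 FPKM). Matrix proteases and their inhibitors had 3 of 18 higher, with Serpine2 at 1.96, and 1 lower, Adamts1 (-1.53). Actin and focal adhesion genes had 3 of 40 higher and 2 lower, the integrin Itga1 (-1.21) and Rhou (-1.12). Complement genes had 1 of 6 higher, C3 itself, and 0 lower, and sterol efflux genes 0 of 6 higher and 1 lower, Mylip (-1.14), a ubiquitin ligase. Autophagy and lysosome genes had 1 of 33 higher, Wipi1 (1.33), a share near the 2.81% of all genes, and apoptosis and cytosolic heat shock genes had 0 of 23 and 0 of 21 apart. Igfbp2, which binds insulin-like growth factors, was the 1 member of 15 insulin and IGF genes past the threshold (22.3, 5.69 and 31.4 FPKM).

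Cytosolic ribosomal protein genes had 0 of 41 at least 2-fold apart, though 40 lay above 0, with a median of 0.36, and nuclear genes of oxidative phosphorylation had 0 of 43 and a median of 0.07, a sign that turned to -0.01 after quantile normalization. Mitochondrially encoded genes had 3 of 13 lower and 0 higher, with a median of -0.77. Several of them have near-identical copies in the nuclear genome, so their reads may not be assigned to 1 place. Writers of m6A had 0 of 9 at least 2-fold apart and a median of -0.13. Among 13 erasers and readers, 1 was lower and 0 higher, where 1.85% of all genes were lower and 2.81% higher. The lower one was Fmr1, at 4.63 FPKM with glucose, 10.5 in the sh-METTL3 library and 4.26 in the control. The reader Ythdf3, at a log2 ratio of -0.996, was just short of the threshold.

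The m6A peak lists overlapped broadly. The authors listed 27456 peaks with glucose and 24622 in the sh-METTL3 condition, each called from pull-down against input with 1 list per condition, so the spread between the 2 pull-downs is not visible in them. Fold enrichment, the authors' ratio of pull-down to input, had a median of 4.82 with glucose and 5.51 in the sh-METTL3 list. Among strong peaks, those enriched 4-fold or more at an adjusted p under 0.001, the order turned, with 10666 in the glucose list and 11353 in the sh-METTL3 list. Of the glucose peaks 72.7% (19960) overlapped a sh-METTL3 peak, and of the sh-METTL3 peaks 83.02% (20440) overlapped a glucose peak. Glucose peaks without a partner had a median fold enrichment of 2.82, against 5.66 for shared ones, while in the sh-METTL3 list these medians were 5.20 and 5.62. By place, 37.3% of the 1411 intron peaks with glucose were shared, the lowest share in that list. In the sh-METTL3 list introns were shared at 72.0% and exons of noncoding RNA least, at 69.4%.

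Over the 18317 pairs the median log2 ratio of fold enrichment, glucose over sh-METTL3, was -0.01, and the middle 50% lay between -0.45 and 0.43. The median differed by peak strength. Binned by the sh-METTL3 fold enrichment, it was 0.35 for the 1513 pairs under 2, 0.22 for the 4725 from 2 to 4 and 0.01 for the 5647 from 4 to 8. It was -0.29 for the 5001 pairs from 8 to 16 and -0.78 for the 1431 over 16. The bins use the denominator of the ratio itself, so bins and ratios are not independent. By place, the median was 0.11 over 3033 pairs in 5′UTRs, -0.07 over 3486 in coding exons, -0.01 over 10011 in 3′UTRs and -0.09 over 440 in introns. Enrichments of lists called separately depend on each list's own background, so these shifts compare lists and not absolute amounts of m6A.

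Differential peaks come from the authors' deposited table alone, which holds 4966 peaks with a p under 0.05. In the authors' deposited table, 1520 peaks were higher with glucose (30.6% of those listed) and 1812 lower (36.5%) at an adjusted p under 0.05, in 2764 genes. The higher share was 45.6%. At 2-fold or more the authors' deposited table held 412 higher and 289 lower peaks, 58.8% higher, so the balance turned with the size required. Place in the transcript separated the directions in the authors' deposited table. In 5′UTRs 69.7% of 472 peaks were higher with glucose. The share was 40.7% of 565 for coding exons and 40.1% of 2098 for 3′UTRs. At 2-fold or more the authors' deposited table had 77.9% of 113 peaks higher for 5′UTRs, 51.3% of 117 for coding exons and 52.2% of 362 for 3′UTRs. Introns, with 60 peaks, had 83.3% higher in the authors' deposited table, whereas of the 440 intron pairs of the peak lists 52 were at least 2-fold higher in fold enrichment and 75 lower.

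**Figure D4:**
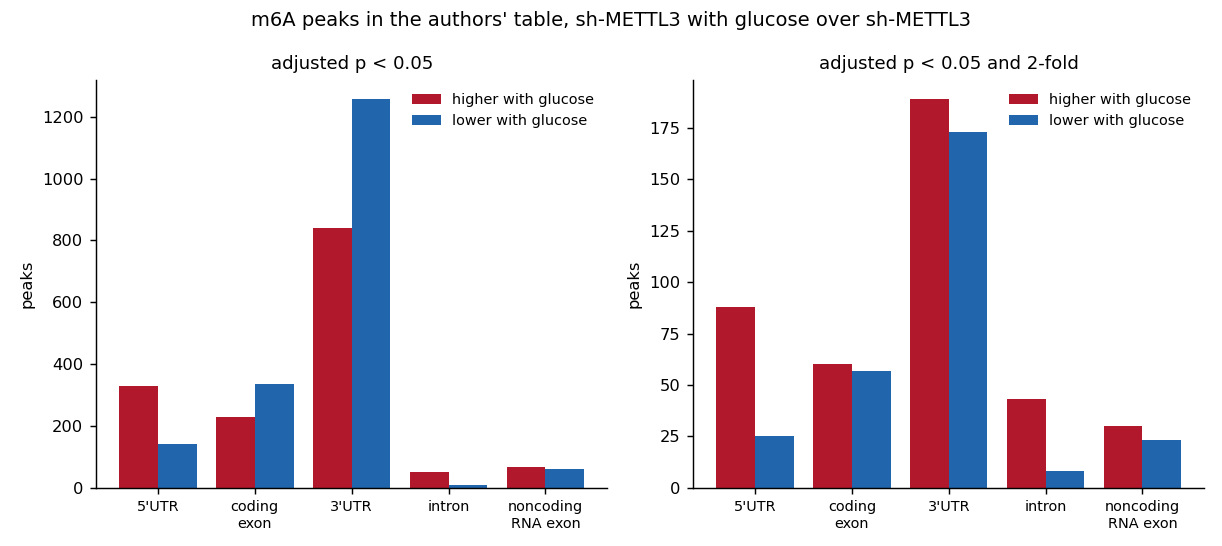
Bars count the differential m6A peaks of the authors' deposited table by place in the transcript, red for higher and blue for lower in sh-METTL3 with glucose than in sh-METTL3, at an adjusted p under 0.05 (left) and with a 2-fold change as well (right). In 5′UTRs 329 peaks were higher and 143 lower, and in 3′UTRs 841 were higher and 1257 lower.

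In the axis genes, the authors' deposited table gave a 3′UTR peak of Mettl3 (chromosome 14, 52294871 to 52295050) a log2 fold change of 1.20 with glucose (adjusted p = 0.00813). That peak had a fold enrichment of 2.71 in the glucose list and none in the sh-METTL3 or control lists. A 3′UTR peak of Smad3 (chromosome 9, 63648414 to 63650361) stood at -0.42 in the authors' deposited table (adjusted p = 4.17e-05), with fold enrichments of 6.65 with glucose, 8.72 in the sh-METTL3 list and 12.1 in the control list. The other Smad3 peaks of the lists, with no entry in the differential table, ran the other way in fold enrichment, at 7.87 with glucose and 7.47 in sh-METTL3 for the other 3′UTR peak and 7.04 and 5.47 for the 5′UTR peak. The 5′UTR peak of S1pr1 (chromosome 3, 115712194 to 115713000) had -0.62 in the authors' deposited table and missed the threshold (adjusted p = 0.167). The 3′UTR peak of S1pr1 had no entry in the differential table. Its fold enrichment was 3.55 in the glucose list, 7.28 in the sh-METTL3 list and 24.9 in the control list. The authors' deposited table gave Smad2 0.38 in its 3′UTR, which missed the threshold too (adjusted p = 0.0977).

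Among lists with 10 or more such peaks, the immediate early genes leaned most to the lower side in the authors' deposited table, with 3 higher and 17 lower over 14 genes, where all peaks had 1520 higher and 1812 lower. Examples in the authors' deposited table were 3′UTR peaks of Klf2 (-1.16) and of the phosphatase gene Dusp5 (-0.96). For Notch and Wnt genes the authors' deposited table held 2 higher and 8 lower, such as the ligands Wnt5a (-1.09) and Wnt4 (-1.02), and for TGF-beta and Smad genes 4 higher and 8 lower. The authors' deposited table listed 11 higher and 4 lower for antigen presentation, with Psmb8 at 1.60, and 8 higher and 2 lower for interferon-stimulated genes, with Oasl2 at 1.35, Cxcl10 at 1.20 and Irf1 at 1.07. Over the pairs of the peak lists, however, the median log2 ratio of fold enrichment was 0.02 for antigen presentation (31 pairs). It was 0 for interferon-stimulated genes (61 pairs) and -0.29 for immediate early genes (45 pairs). In the authors' deposited table proteasome subunits had 8 higher and 0 lower, cytosolic ribosomal proteins 6 and 0, nuclear genes of oxidative phosphorylation 6 and 0, and mitochondrially encoded genes 9 and 0. The highest named peaks in the authors' deposited table were an intron peak of Plcb1 (8.24) and, among the mitochondrially encoded genes, peaks of mt-Atp8 (5.69) and mt-Nd4 (5.16). An intron peak of Slc22a21 (3.91) and 3′UTR peaks of Sec16b (3.75) and Trub1 (3.63) came after them in the authors' deposited table. The Plcb1 and Trub1 regions were matched to no peak in the list of any condition, where each listed peak could be matched to 1 region at most. These mt-Atp8 and mt-Nd4 regions had fold enrichments of 7.22 and 18.4 in the glucose list and 120 and 158 in the control list. Neither was matched to a peak in the sh-METTL3 list, and reads of nuclear copies may enter here as in the RNA. The lowest in the authors' deposited table was a coding exon peak of Eno1b (-6.12), a near-identical copy of Eno1, whose own 3′UTR peak stood at -1.99, so reads of these may have been split. The Eno1b region was likewise matched to no peak in the list of any condition. A 3′UTR peak of Tom1 (-4.41) and coding exon peaks of Mfap1a (-3.18) and Dynlt1a (-3.10) followed in the authors' deposited table.

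Genes with higher and genes with lower m6A peaks had RNA medians close to that of all genes. In the 1144 tested genes with higher peaks alone, the median log2 ratio of RNA was -0.00, with 28 genes at least 2-fold higher and 13 lower. In the 1369 tested genes with lower peaks alone it was 0.08, with 40 higher and 32 lower, and over all genes it was 0.06. Across 14931 peak pairs in tested genes, the Spearman correlation of the ratio of fold enrichment with the ratio of RNA was -0.02, a description, since pairs within a gene share its RNA value and peaks and RNA may share input libraries. The 408 pairs in genes at least 2-fold higher in RNA had a median log2 ratio of fold enrichment of -0.02, and the 308 pairs in genes at least 2-fold lower had 0.03.

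**Figure D5:**
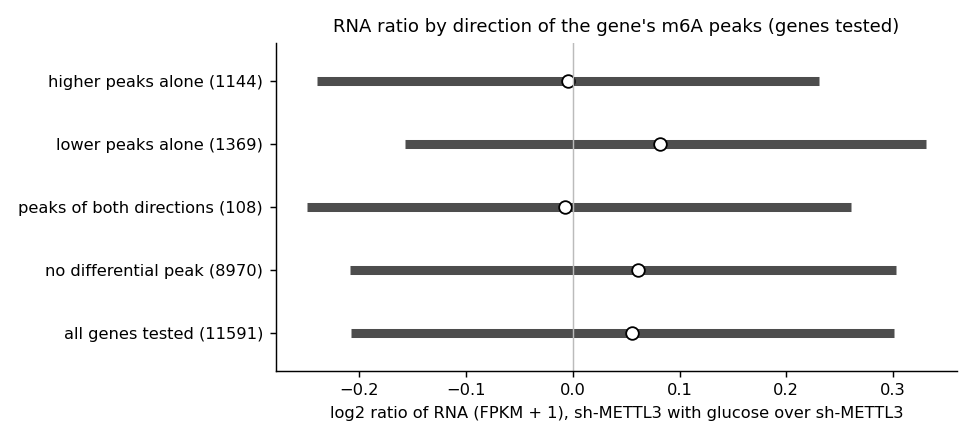
Circles give the median and bars the middle 50% of the log2 ratio of RNA (FPKM + 1), sh-METTL3 with glucose over sh-METTL3, for genes grouped by the direction of their differential m6A peaks in the authors' deposited table. The number of tested genes is in brackets. The median was -0.00 for genes with higher peaks alone, 0.08 for those with lower peaks alone and 0.06 over all genes.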

How the data were processed

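Per the labels' protocols, an m6A antibody was used on fragments of poly(A) RNA, and paired-end libraries kept the strand. HOMER 4.10, edgeR 4.1, StringTie 2.1.2, HISAT2 2.0.4 and fastp 0.19.4 appear, with no role, in the submitters' processing notes. The peak caller, and whether strand was used in counting, are not given in the sources used here, so overlapping and antisense genes may share reads. The build in those notes is the human GRCh38 (15 of 15 samples), but 11191 of 11193 genes matched by symbol overlapped their place in RefSeq's GRCm38.p6.

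The deposited RNA table holds FPKM and whole-number counts, 1 column of each per condition, per the file headers, and 0 columns were left unused. Log2 ratios were taken of FPKM plus 1, over genes with a mean of at least 1. A gene was counted at a log2 ratio of 1 or beyond in either direction. The authors deposited peak lists with fold enrichment, a ratio, and log10 p scores, and a table of differential peaks with a log2 fold change, a p-value and an adjusted p. Its deposited fold change had sh-METTL3 on top, so the sign was turned, after which 88.0% of the 4011 peaks in both lists had the sign of the ratio of fold enrichments. Starts in the deposited lists count from 0, so 1 was added, and peaks with repeated coordinates were counted once. A pair of peaks was the best overlap of at least 1 base on the same strand.

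The members and lists were chosen with earlier results of these data known. Named genes are Mettl3, S1pr1, Smad2 and Smad3, the 10 highest and 10 lowest protein-coding genes at a mean FPKM of at least 5, the 10 highest and 10 lowest list members, and up to 3 members per list and direction. For peaks they are the 5 highest and 5 lowest and up to 3 per list. Other genes named, and the motifs GAAANNGAA and GGGANNTTC, were chosen after values were seen. Computation used Python 3.11.15 with pandas 2.3.3, numpy 2.4.6 and scipy 1.17.1 and was tested on simulated data. Totals were 52807701 counts with glucose, 53655982 in sh-METTL3 and 54282720 in the control, and the depth of the pull-downs is unknown. Alternatives were other pseudocounts, filters, scalings, overlaps and thresholds. Some genes that met the rule are not reported here.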

Additional observations from a re-analysis of the deposited data

How the results depend on the processing

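The counts of RNA genes at least 2-fold higher and lower, 326 and 214, became 569 and 402 with a pseudocount of 0.1 FPKM and 109 and 62 with one of 5, since the pseudocount sets how far low genes count. On counts scaled by library size alone, with 1 added, they became 484 and 337, with the filter raised to 5 FPKM they were 186 and 111, and at 1.5-fold, a threshold chosen after seeing the data, 1053 and 840. Median-of-ratios scaling (317 and 227), quantile normalization (295 and 247), no filter (355 and 233) and protein-coding genes alone (286 and 172) stayed within 1.5 times. The higher share, 60.4%, ranged from 54.4% to 63.7% over these alternatives. The median of the tubular list, -0.86, turned to 0.0056 with no filter on low values, where markers near 0 FPKM enter. Over the alternatives the medians ranged from 0.89 to 1.65 for interferon-stimulated genes, 1.04 to 1.61 for antigen presentation, 0.68 to 1.20 for inflammatory genes and -1.05 to -0.80 for cholesterol genes. Of the list medians under an alternative, 285 moved by at most 0.1, 62 by more and 1 turned from beyond 0.5. Single genes were less steady. Of the log2 ratios of named genes under an alternative, 655 stayed within the wider side of their binomial interval and 485 moved further. Of those 485, 174 moved with a pseudocount of 5 FPKM and 116 with one of 0.1. Medians near 0 also turned sign, namely ferroptosis drivers (0.06) and NRF2 targets (-0.0021) over genes of at least 5 FPKM, and sterol efflux (-0.03), matrix (0.00054) and structured noncoding RNA genes (-0.01) with no filter. The share of glucose peaks with a sh-METTL3 peak, 72.7%, was 46.0% when 50% of both peaks had to overlap, 75.5% at an adjusted p under 0.05 in both lists, and 80.8% for peaks enriched 4-fold or more with an adjusted p under 0.001. The median log2 ratio of fold enrichment, -0.01, was -0.040 with that overlap, -0.042 for peaks enriched 2-fold or more, and 0.018 for peaks under 2 kilobases, an alternative chosen after seeing the data. The authors' 1520 higher and 1812 lower peaks became 990 and 1227 at an adjusted p under 0.01, 2354 and 2612 at a p under 0.05, and 412 and 289 at 2-fold. Pairs of peaks with a 2-fold ratio of fold enrichment numbered 1710 higher and 1555 lower. No paired analysis was possible because the RNA table holds 1 library per condition and the peak tables hold 1 list per condition. For the same reason no replicate could be left out, and the spread between cultures is not known. Depth limits the ratios that rest on few counts, such as Lcn2 with 31, Nos2 with 13 and Csf2 and Saa3 with 0 counts in sh-METTL3.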

Other observations

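A further 3 groups were assembled after their values were seen, so their counts and medians were fixed by that choice and are given as descriptions with no test. Over all tested genes 2.81% were at least 2-fold higher with glucose and 1.85% lower. Genes of the cornified envelope and of stratified epithelium, a programme of skin and urothelium, had 9 of 10 tested members at least 2-fold higher with glucose and 1 lower, with a median log2 ratio of 2.30. The envelope precursors Sprr1a (48.5, 5.06 and 28.3 FPKM in the glucose, sh-METTL3 and control libraries) and Sprr1b (22.5, 1.28 and 7.32) and the keratin Krt20 (22.6, 3.92 and 13.3) were highest with glucose. The protease inhibitor Slpi stood at 4.53, 0.0404 and 1.97 FPKM, and Lad1, an anchoring filament protein, was the lower member at 15.8, 36.2 and 10.7 FPKM. The Sprr genes are a family of similar sequences, so their reads may have been split among members.

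Factors that pattern the embryonic kidney and its duct had 8 of 12 members at least 2-fold lower with glucose and 1 higher, with a median of -1.22. Gfra1, the co-receptor of the duct-inducing ligand Gdnf, stood at 0.353 FPKM with glucose, 5.57 in the sh-METTL3 library and 0.236 in the control. Gdnf itself was the higher member, at 6.72, 1.03 and 2.77 FPKM. Foxc1 (1.44, 6.58 and 1.74 FPKM) and Emx2 (5.72, 16.9 and 6.27) were close in the glucose and control libraries, and Pax2, also in the tubular list, was lowest in the control. Cohesin and condensin genes, which fold and hold chromosomes, had 7 of 20 members lower and 0 higher, with a median of -0.77 and 19 below 0. Smc4 stood at 19.3, 65.6 and 38.4 FPKM and the cohesin loader Nipbl at 5.26, 13.0 and 4.40. Many of these are long genes, and the decile of longest genes by inferred length had a median of -0.10. The part of gene length was not tested.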
